A study of Arabidopsis thaliana with 27 samples.

Results

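The late-rising set holds the probe sets of the Arabidopsis ATH1 array that were higher in ozone than in clean air after 2 d, but not after 3 h, in both genotypes studied. Levels are given as log2(intensity + 1), so that 1 unit is a 2-fold difference of intensity + 1. A probe set was a member when the mean level in ozone exceeded that in clean air by at least 1 at 2 d in the mutant and in wild type, when the same difference at 3 h was under 0.5 in both, and when its highest group mean reached 6. Of 22746 probe sets, 117 (0.514%) met these thresholds. AMY1, CYP71B26, CRT1b and AT2G44240 were left out by name, which left 113 members. The platform annotation gave 1 gene for 53 members and none with several genes, and it did not list the other 60, which are described here by counts and ranges only. Members were thus chosen by the ozone differences at 3 h and 2 d in both genotypes, so those differences are a description of the members and carry no test.

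Leaf RNA was measured on 27 arrays in 8 groups, from plants 4 to 5 weeks old. The mutant gpa1-4/agb1-2, a double null that lacks the G protein's alpha subunit and its beta subunit, was sampled in ozone at 3 h (3 arrays), in clean air at 3 h (3), in ozone at 2 d (4) and in clean air at 2 d (3). Col-0 wild type was sampled in ozone at 3 h (3), in clean air at 3 h (3), in ozone at 2 d (4) and in clean air at 2 d (4). Ozone was 125 ppb and clean air 5 ppb, both for 7 h of each day over 2 days, in 4 chambers that the labels do not tie to arrays. The mutant is 1 double-mutant line, so the 2 subunits cannot be told apart. Leaves came from the middle of the rosette whorl, and which plants were pooled for an array is not stated. The hour of day of the 2 d harvest is not in the labels either, so length of exposure and hour of day cannot be told apart in any difference between the times.

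Ozone enters a leaf through the stomata and breaks down in the cell wall space to reactive oxygen species. The first hours are known for bursts of signalling and transcription factor genes, while longer exposure is known for defence proteins, secretory pathway genes, altered metabolism and early senescence. Heterotrimeric G proteins pass signals from the cell surface and have been linked to stomatal behaviour and to the oxidative burst of plants under ozone.

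Arrays of a group correlated at 0.916 to 0.965 over all probe sets, no arrays were identical, and the median intensity lay between 153.5 and 182. The array furthest from its group, with a mean correlation of 0.923, was replicate 3 of wild type in ozone at 3 h. Without it the thresholds were met by 83 probe sets, 82 of them members. Leaving out the second clean-air mutant array at 3 h, whose member levels were the highest of its group, gave 80, all of them members too. Over all arrays left out in turn, the count ranged from 80 to 140. GPA1 and AGB1 are not among the named probe sets, so the loss of the targeted genes was not checked here. Of 10 leaf mesophyll markers only RCA, the activase of Rubisco, had a named probe set, with group means of 14.01 to 14.67. The guard cell marker FAMA had group means of 7.05 to 7.64, the root marker PYK10 4.88 to 6.61 and the flower marker PGA4 3.68 to 4.83, and none of the 4 passed a test between ozone and clean air. Their part in the results was not tested. In bulk leaves, fewer cells of a type and less RNA per cell cannot be told apart.

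Over the 113 members, the median difference between ozone and clean air at 2 d was 1.45 in the mutant (range 1.0 to 3.56) and 1.54 in wild type (1.0 to 4.40), against medians of -0.01 and -0.09 over all probe sets. At 3 h the members' medians were -0.13 in the mutant and -0.34 in wild type, against -0.04 and -0.01. Ozone was below clean air at 3 h in both genotypes for 62 of the 113, against 36.3% of all probe sets, and by at least 1 in both for 6, against 0.73%. Without the third wild-type ozone array these counts were 51 and 7, and the wild-type median was -0.05. Without the second clean-air mutant array they were 50 and 6, and the mutant median was 0.06.

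Every ozone array lay above every clean-air array at 2 d for 76 members in the mutant, against 6.26% of all probe sets, for 71 in wild type, against 5.34%, and for 62 in both genotypes, against 2.37%. These counts come from the contrast that chose the members, and nothing is read from them.

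**Figure D1:**
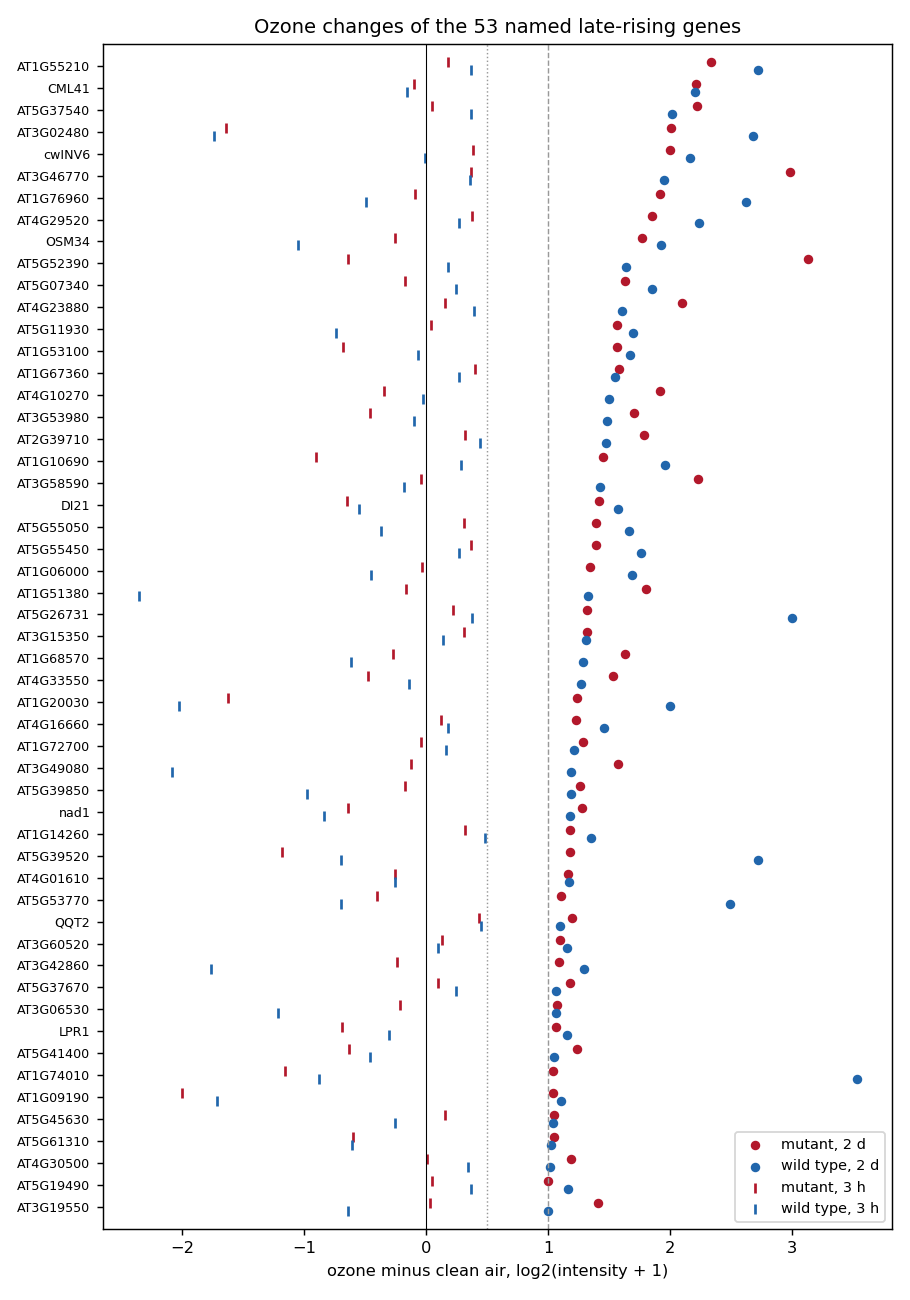
Ozone minus clean air, in log2(intensity + 1), for the 53 named members, ordered by the smaller of the 2 differences at 2 d. Circles are 2 d and ticks are 3 h, red is the mutant and blue wild type, the dashed line marks the threshold of 1 at 2 d and the dotted line the threshold of 0.5 at 3 h. AT1G55210 leads with 2.34 in the mutant and 2.72 in wild type, and AT1G51380 has the lowest 3 h value, -2.35 in wild type.

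Genes close to a threshold show how it split like values. Just inside the 2 d threshold, AT3G19550 differed by 1.41 in the mutant and 1.0 in wild type, AT5G19490 by 1.0 and 1.16, and AT4G30500 by 1.18 and 1.02. Just outside it, AT5G58570 differed by 0.99 in the mutant and 1.01 in wild type, PCME by 0.98 and 1.08, and AT2G15020 by 1.04 and 0.97. At 3 h, AT1G14260 (0.31 in the mutant and 0.48 in wild type), QQT2 (0.43 and 0.45) and AT2G39710 (0.32 and 0.44) were just inside. GLR1.4 (0.51 in the mutant and 0.17 in wild type), AT5G44390 (0.52 and 0.22) and RING1 (0.53 and 0.19) were just outside, although at 2 d RING1 differed by 1.95 in the mutant and 2.16 in wild type.

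Secreted proteins and proteins with roles in defence made up 10 of the 53 named members. Their median 2 d difference was 1.62 in the mutant and 1.84 in wild type, and ozone levels at 2 d exceeded those at 3 h for all 10 in both genotypes. The same held for 94 of all 113 members in the mutant and 93 in wild type, against 9973 and 8584 of 22746 probe sets. The rule favours high ozone means at 2 d, so nothing is read from the count of 10. AT1G55210 encodes a dirigent-like protein, a family that guides phenoxy radical coupling in lignan and lignin formation. Its levels at 2 d were 12.29, 12.45, 11.73 and 12.14 in ozone-treated mutants, against 9.64, 10.06 and 9.75 in clean-air mutants. In wild type they were 12.33, 12.88, 12.55 and 12.71 in ozone, against 10.12, 9.98, 9.33 and 10.15 in clean air. The groups did not overlap, and the mean differences were 2.34 in the mutant (5.05-fold) and 2.72 in wild type (6.60-fold). At 3 h the same differences were 0.18 and 0.37. The 3 h levels were 10.43, 11.89 and 10.35 in ozone against 10.43, 11.36 and 10.33 in clean air in the mutant. In wild type they were 12.0, 12.36 and 10.26 in ozone, against 11.55, 10.86 and 11.10 in clean air, so the groups overlapped in both genotypes.

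CML41, a calmodulin-like protein of plasmodesmata (AT3G50770), had 10.37, 10.26, 10.32 and 10.71 in ozone-treated mutants at 2 d, against 6.42, 8.54 and 9.64 in clean-air mutants. Wild type had 9.73, 10.32, 9.24 and 10.47 in ozone, against 6.80, 8.85, 6.18 and 9.11 in clean air. The ozone arrays were close to each other in the mutant, with an SD of 0.20 (n = 4), while the clean-air arrays had SDs of 1.64 in the mutant (n = 3) and 1.46 in wild type (n = 4). Ozone exceeded clean air by 2.21 in each genotype, 4.64-fold in the mutant and 4.61-fold in wild type. Without clean-air replicate 1 the mutant difference was 1.32.

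OSM34 (AT4G11650) encodes an osmotin, a thaumatin-like protein of the PR-5 family, and was the only named member on the pathway lists. The 60 members without a listed gene could not be matched to these lists, so list genes may be among them. It was dim, with 4.64, 5.32, 2.51 and 5.63 in ozone-treated mutants at 2 d, against 3.32, 2.43 and 2.51 in clean-air mutants. Wild type had 6.91, 6.19, 8.38 and 3.97 in ozone, against 7.37, 4.08, 2.38 and 3.94 in clean air. The groups overlapped in both genotypes, and the differences of 1.77 in the mutant and 1.92 in wild type were about as large as the SDs of up to 2.1. With 16 added to each intensity in place of 1 the mutant difference was 0.92, and the wild-type difference was 1.23 without clean-air replicate 3, 1.25 without ozone replicate 3 and 2.90 without clean-air replicate 1. The second thaumatin-like member, AT1G20030, was lower in ozone than in clean air at 3 h in both genotypes, with 7.63, 7.75 and 7.83 in ozone against 10.20, 8.01 and 9.85 in clean air in the mutant. Wild type at 3 h had 7.17, 7.23 and 7.87 in ozone against 9.69, 8.77 and 9.88 in clean air. These groups did not overlap. At 2 d AT1G20030 had 9.56, 8.26, 10.30 and 8.83 in ozone-treated mutants, against 5.50, 9.98 and 8.53 in clean-air mutants, so that the difference of 1.23 rested on the lowest clean-air array. Without that array it was -0.02, and without replicate 2, the highest, it was 2.22. In wild type the 2 d difference was 2.00, with SDs of 1.38 in ozone and 2.91 in clean air (n = 4 each), and it was 0.91 without clean-air replicate 1 and 3.20 without replicate 3.

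AT5G52390 encodes a PAR1 family protein. Its ozone levels at 2 d were 9.69, 9.19, 8.18 and 8.0 in the mutant, against 2.68, 8.64 and 5.61 in clean air. Wild type had 9.46, 10.45, 9.53 and 9.57 in ozone, against 8.68, 7.56, 7.93 and 8.28 in clean air, with no overlap. The mutant difference was 3.12, with a clean-air SD of 2.98 (n = 3), and it was 1.64 without clean-air replicate 1. AT1G74010, of the strictosidine synthase-like family, showed the opposite order of genotypes, with 1.04 in the mutant and 3.53 in wild type. Its array levels at 2 d were 6.52, 4.75, 7.01 and 7.19 in ozone against 2.68, 6.89 and 6.43 in clean air in the mutant, and the mutant difference was -0.29 without clean-air replicate 1, 1.82 without replicate 2, 1.59 without replicate 3, 1.58 without ozone replicate 2 and 0.61 with 16 added to each intensity. Wild type had 7.84, 7.01, 9.80 and 7.38 in ozone, against 7.25, 2.56, 3.73 and 4.38 in clean air, with 1 clean-air array above the lowest ozone array.

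The remaining secreted members were 3 small proteins of the lipid-transfer and bifunctional inhibitor family and a GDSL-type lipase. AT5G55450 had 12.58, 12.57, 12.35 and 12.13 in ozone-treated mutants at 2 d, against 10.85, 10.97 and 11.24 in clean-air mutants. In wild type it had 12.23, 12.89, 12.81 and 12.70 in ozone, against 11.01, 10.35, 10.65 and 11.57 in clean air. Its groups did not overlap in either genotype. AT4G33550 differed by 1.53 in the mutant and 1.27 in wild type, also without overlap. AT3G53980 differed by 1.71 in the mutant and 1.48 in wild type with overlap in both genotypes, and the clean-air arrays of wild type read 4.12, 6.16, 4.36 and 6.79. Its mutant difference was 1.08 without clean-air replicate 2. AT5G55050, the GDSL lipase, had 10.46, 10.05, 9.54 and 10.94 in ozone-treated mutants, against 7.91, 9.19 and 9.45 in clean-air mutants. The wild-type levels were 10.84, 10.24, 10.73 and 11.46 in ozone, against 9.09, 9.23, 8.69 and 9.6 in clean air, and no groups overlapped. Its mutant difference was 1.39, or 0.92 without clean-air replicate 1.

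**Figure D2:**
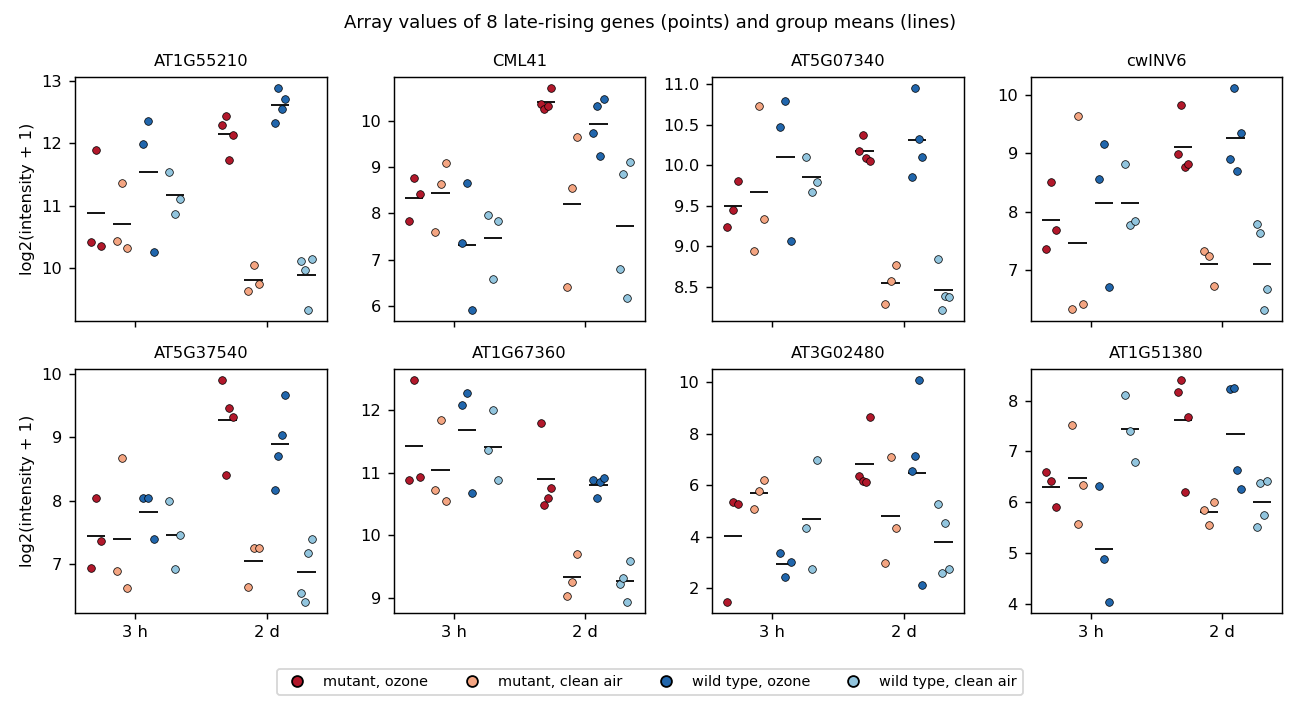
Levels of 8 members on every array, in log2(intensity + 1), at 3 h and 2 d. Within a time the groups run mutant in ozone, mutant in clean air, wild type in ozone and wild type in clean air, points are arrays and short lines group means. At 2 d the ozone points of AT1G55210, CML41, AT5G07340, cwINV6, AT5G37540 and AT1G67360 lie above the clean-air points of the same genotype, while those of AT3G02480 overlap them.

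Chaperones of the secretory pathway and other heat shock family proteins gave 3 named members. AT5G07340 encodes a calnexin, a membrane lectin that holds newly made glycoproteins in the endoplasmic reticulum. At 2 d it had 10.18, 10.38, 10.09 and 10.05 in ozone-treated mutants, against 8.28, 8.58 and 8.77 in clean-air mutants. In wild type it had 9.85, 10.95, 10.32 and 10.09 in ozone, against 8.85, 8.21, 8.38 and 8.38 in clean air. The differences were 1.63 (3.10-fold) in the mutant and 1.85 (3.60-fold) in wild type. Its 3 h clean-air means were 9.67 in the mutant and 9.86 in wild type, against 2 d ozone means of 10.17 and 10.30. From 3 h to 2 d its clean-air level shifted by -1.13 in the mutant and -1.40 in wild type, and its ozone level by 0.67 and 0.20. The mutant clean-air arrays at 3 h were spread, at 8.95, 10.73 and 9.34. AT4G16660, an HSP70 family protein of the endoplasmic reticulum, had 10.79, 10.64, 10.64 and 10.92 in ozone-treated mutants at 2 d, against 9.21, 9.34 and 10.01 in clean-air mutants. Its wild-type levels were 10.45, 11.06, 10.50 and 10.80 in ozone, against 9.28, 9.19, 8.82 and 9.70 in clean air. Neither pair overlapped, and the differences were 1.23 and 1.45. AT5G37670, a small heat shock protein of peroxisomes, differed by 1.18 in the mutant and 1.06 in wild type, with overlap in wild type, where the value was 0.66 without ozone replicate 1.

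Proteolysis and ubiquitin ligase families gave 5 named members. The aspartyl protease AT5G37540 had 9.90, 8.40, 9.46 and 9.32 in ozone-treated mutants at 2 d, against 6.64, 7.26 and 7.26 in clean-air mutants. Wild type had 8.17, 8.70, 9.04 and 9.67 in ozone, against 6.55, 6.41, 7.17 and 7.40 in clean air. These differences, 2.22 (4.65-fold) and 2.01 (4.04-fold), were the largest of the class, and no groups overlapped. A second aspartyl protease, AT2G39710, had 9.92, 10.09, 10.35 and 10.01 in ozone-treated mutants, against 8.02, 8.84 and 8.05 in clean-air mutants. In wild type it had 9.30, 10.10, 10.36 and 10.30 in ozone, against 8.34, 8.38, 9.09 and 8.35 in clean air. Its clean-air level was 2.00 lower at 2 d than at 3 h in the mutant and 1.83 lower in wild type, and its ozone level was also lower at 2 d than at 3 h, by 0.53 and 0.80.

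AT4G01610, a cathepsin B-like cysteine protease of the vacuolar and apoplastic system, differed from AT2G39710 over time. Its clean-air means were 11.18 in the mutant and 11.22 in wild type at 2 d, within 0.05 of those at 3 h. The mutant mean at 3 h came from spread arrays, with 10.29, 12.16 and 11.05 (SD 0.94, n = 3). Ozone-treated mutants had 12.86, 12.43, 11.88 and 12.19 at 2 d, against 11.05, 11.42 and 11.06 in clean air. Wild type had 12.11, 12.61, 12.42 and 12.41 in ozone, against 11.53, 11.01, 11.07 and 11.27 in clean air. The difference was 1.17 in each genotype without overlap. The RING-type protein AT1G14260 differed by 1.18 in the mutant and 1.35 in wild type, without overlap, and the RING-type protein AT5G41400 by 1.24 and 1.05, with overlap in both genotypes. With 1 array left out, AT5G41400 ranged from 0.61 to 2.13 in the mutant and from 0.41 to 1.49 in wild type, lowest without clean-air replicate 2 in the mutant and clean-air replicate 3 in wild type. The mutant value was highest without ozone replicate 3 and was 1.93 without clean-air replicate 1, and the wild-type value was 0.63 without ozone replicate 2.

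Carbohydrate and glycan enzymes gave 4 named members. cwINV6 (AT5G11920) is a fructan exohydrolase of the cell wall invertase family. It had 8.99, 9.83, 8.77 and 8.82 in ozone-treated mutants at 2 d, against 7.33, 7.25 and 6.73 in clean-air mutants. Wild type had 8.91, 10.11, 8.70 and 9.34 in ozone, against 7.79, 7.64, 6.32 and 6.69 in clean air. The differences were 2.00 (4.00-fold) and 2.16 (4.46-fold), while at 3 h they were 0.38 and -0.01. AT1G53100, of the core-2/I-branching acetylglucosaminyltransferase family, had 8.82, 8.54, 9.39 and 9.11 in ozone-treated mutants, against 6.81, 7.55 and 7.85 in clean-air mutants. In wild type it had 7.96, 8.35, 9.40 and 8.63 in ozone, against 7.13, 6.87, 6.43 and 7.25 in clean air, and no groups overlapped. AT3G15350 of the same family differed by 1.31 in each genotype, again without overlap. AT1G06000 encodes a flavonol rhamnosyltransferase and differed by 1.34 in the mutant and 1.69 in wild type. It had 9.92, 9.69, 9.21 and 9.25 in ozone-treated mutants, against 7.55, 7.78 and 9.20 in clean-air mutants, and 10.65, 10.22, 9.53 and 9.97 in ozone against 8.47, 8.24, 8.11 and 8.78 in clean air in wild type. The nearest arrays of the mutant groups were almost at the same level.

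Lipid, transport and redox proteins gave 5 named members. AT1G67360, a lipid droplet-associated protein of the rubber elongation factor family, had 11.79, 10.49, 10.59 and 10.75 in ozone-treated mutants at 2 d, against 9.03, 9.25 and 9.69 in clean-air mutants. Its wild-type levels were 10.87, 10.60, 10.84 and 10.92 in ozone, against 9.22, 9.31, 8.94 and 9.59 in clean air. The differences were 1.58 and 1.54 without overlap. At 3 h all 4 of its group means were higher than at 2 d, with 11.43 in ozone and 11.04 in clean air in the mutant, and 11.68 in ozone and 11.41 in clean air in wild type.

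AT5G11930, a glutaredoxin, had 7.63, 8.05, 7.04 and 8.18 in ozone-treated mutants at 2 d, against 6.47, 6.46 and 5.55 in clean-air mutants. Wild type had 7.20, 7.65, 8.17 and 7.33 in ozone, against 6.82, 5.96, 5.68 and 5.12 in clean air. The differences were 1.56 and 1.69 without overlap. Among the others, the nitrate transporter family gene AT1G68570 differed by 1.63 in the mutant and 1.28 in wild type, AT1G72700, a lipid flippase-type P-type ATPase, by 1.28 and 1.21, and LPR1 (AT1G23010), a multicopper oxidase of the root response to low phosphate, by 1.06 and 1.15. Arrays overlapped only for AT1G68570 in wild type, where clean-air arrays read 11.29, 10.37, 7.94 and 10.80. Without the lowest of these, replicate 3, its wild-type difference was 0.56.

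Water deficit and wounding gave 3 named members. Their 3 h differences were -1.64 in the mutant and -1.74 in wild type for AT3G02480, and -0.65 and -0.55 for DI21. For AT4G10270 they were -0.34 and -0.03, so its wild-type means hardly differed. Ozone and clean-air arrays at 3 h overlapped for each gene in both genotypes. The rule admitted only 3 h differences under 0.5, and 62 members were below 0 in both genotypes. Nothing is thus read from the shared direction. AT3G02480, a late embryogenesis abundant family gene, had 1.49, 5.35 and 5.27 in ozone-treated mutants at 3 h, against 5.07, 5.76 and 6.20 in clean-air mutants. Wild type at 3 h had 3.36, 2.46 and 3.04 in ozone, against 4.36, 2.74 and 6.97 in clean air. At 2 d the mutant had 6.36, 6.16, 6.11 and 8.64 in ozone, against 2.98, 7.11 and 4.36 in clean air. Wild type had 6.53, 7.11, 10.08 and 2.14 in ozone, against 5.26, 2.61, 4.55 and 2.74 in clean air. The 2 d differences of 2.00 and 2.67 were thus accompanied by overlap and by SDs of up to 3.28, and with 16 added to each intensity in place of 1 the mutant difference was 1.39. Single clean-air arrays left out moved the mutant value between 1.08 without replicate 1 and 3.15 without replicate 2, and single ozone arrays the wild-type value between 1.47 without replicate 3 and 4.12 without replicate 4. DI21 (AT4G15910), a drought-induced gene, had 8.31, 8.58, 8.52 and 7.33 in ozone-treated mutants, against 6.31, 7.49 and 6.5 in clean-air mutants. Wild type had 8.01, 8.41, 7.43 and 6.07 in ozone, against 6.05, 6.25, 5.34 and 5.99 in clean air. The differences were 1.42 and 1.57, with overlap at single arrays. AT4G10270, of the wound-responsive family, had 6.42, 7.02, 6.22 and 6.69 in ozone-treated mutants, against 4.95, 5.29 and 3.77 in clean-air mutants. In wild type it had 6.82, 6.97, 6.47 and 6.20 in ozone, against 6.22, 4.73, 4.77 and 4.75 in clean air, where 1 clean-air array just exceeded the lowest ozone array.

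Transcription and cell cycle genes gave 3 named members. AT3G46770, a B3-domain protein, had 7.87, 7.97, 7.00 and 7.36 in ozone-treated mutants at 2 d, against 4.31, 5.23 and 4.17 in clean-air mutants. Wild type had 6.69, 7.29, 6.76 and 6.55 in ozone, against 5.10, 4.61, 4.97 and 4.81 in clean air. The differences were 2.98 (7.88-fold) and 1.95 (3.87-fold), or 2.37 and 1.53 with 16 added to each intensity. AT1G10690, a SIAMESE-related inhibitor of cyclin-dependent kinases, differed by 1.45 in the mutant and 1.95 in wild type, with 6.13, 7.37, 5.73 and 7.92 in ozone against 5.84, 6.01 and 4.15 in clean air in the mutant. In wild type it had 7.01, 7.57, 6.70 and 6.62 in ozone, against 5.94, 5.33, 3.23 and 5.57 in clean air. The mutant groups overlapped and the wild-type groups did not, and without clean-air replicate 3 the mutant value was 0.86. AT5G19490, a histone-fold protein, was the member nearest the threshold in the mutant.

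RNA, ribosome and organelle proteins were the largest class, with 11 named members. Their median 2 d difference was 1.19 in the mutant and 1.18 in wild type. At 3 h, 10 of the 11 were below 0 in each genotype, with medians of -0.22 in the mutant and -0.98 in wild type, and QQT2, a GTPase, was the exception. Of all 113 members, 71 were below 0 in the mutant and 77 in wild type, against 12210 and 11611 of 22746 probe sets. The rule admitted only 3 h differences under 0.5, so nothing is read from the direction in this class. AT1G51380, a DEAD-box RNA helicase, had 6.60, 6.42 and 5.91 in ozone-treated mutants at 3 h, against 7.51, 5.58 and 6.34 in clean-air mutants. Wild type at 3 h had 6.32, 4.88 and 4.05 in ozone, against 8.11, 7.41 and 6.80 in clean air, a difference of -2.35 without overlap. At 2 d it had 8.17, 8.40, 6.21 and 7.67 in ozone against 5.86, 5.56 and 6.0 in clean air in the mutant, and 8.22, 8.24, 6.64 and 6.27 in ozone against 5.51, 6.38, 5.75 and 6.42 in clean air in wild type. The 2 d differences were 1.80 and 1.33, with overlap in wild type.

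AT3G49080, a mitochondrial ribosomal protein S9, differed by -2.08 in wild type at 3 h, where ozone arrays had 6.0, 4.16 and 6.63 against 8.10, 7.89 and 7.05 in clean air. At 2 d it differed by 1.57 in the mutant, or 0.85 without clean-air replicate 3, and by 1.18 in wild type, with overlap in both. AT3G06530, an ARM-repeat protein, had 8.14, 8.09 and 7.23 in ozone-treated wild type at 3 h, against 9.40, 8.54 and 9.16 in clean air, and 2 d differences of 1.07 in the mutant and 1.06 in wild type. The cytosolic ribosomal protein gene AT5G39850 had 10.32, 10.73, 9.84 and 9.66 in ozone-treated mutants at 2 d, against 8.91, 9.02 and 8.72 in clean-air mutants. Wild type had 10.09, 10.64, 9.68 and 9.61 in ozone, against 9.00, 9.28, 8.46 and 8.54 in clean air. These groups were separate in both genotypes, with differences of 1.26 and 1.18.

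Of 2 pentatricopeptide repeat genes, a family of organelle RNA-binding proteins, AT3G58590 differed by 2.23 in the mutant and 1.43 in wild type and AT1G09190 by 1.04 and 1.10. AT3G58590 had 6.82, 7.05, 5.87 and 7.57 in ozone-treated mutants at 2 d, against 3.77, 3.60 and 6.43 in clean-air mutants, and its wild-type groups overlapped as well. With 16 added to each intensity its wild-type difference was 0.90. AT1G09190 was near the bottom of the scale at 3 h, with 1.26, 1.49 and 1.81 in ozone-treated mutants, against 3.34, 1.72 and 5.49 in clean-air mutants. Among the rest of the class, the zinc knuckle protein AT3G42860 differed by 1.09 in the mutant and 1.29 in wild type, nad1, a mitochondria-encoded subunit of respiratory complex I, by 1.27 and 1.18, and AT5G53770, a nucleotidyltransferase family protein, by 1.11 and 2.49, all 3 without overlap. The mutant value of AT3G42860 was 0.64 without clean-air replicate 2, and the wild-type value of AT5G53770 was 1.66 with 16 added. QQT2 (AT4G21800) differed by 1.19 and 1.10 and AT5G61310, a small subunit of cytochrome c oxidase, by 1.05 and 1.02, also without overlap.

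No role is given here for 9 named members. AT1G76960 had 12.29, 12.56, 12.43 and 12.26 in ozone-treated mutants at 2 d, against 9.66, 10.78 and 10.97 in clean-air mutants. Wild type had 12.10, 13.17, 13.04 and 12.15 in ozone, against 10.14, 9.58, 10.04 and 10.22 in clean air. AT4G29520 had 11.29, 10.94, 10.62 and 10.89 in ozone-treated mutants, against 9.17, 9.18 and 8.92 in clean-air mutants. Both genes showed no overlap in either genotype, the second also in wild type with 11.09, 11.15, 11.13 and 11.39 in ozone against 9.05, 9.07, 8.47 and 9.25 in clean air. AT4G23880 had 8.81, 8.77, 9.02 and 8.44 in ozone-treated mutants, against 6.35, 6.65 and 7.00 in clean-air mutants. Its wild-type levels were 8.03, 8.73, 8.75 and 7.71 in ozone, against 6.79, 6.85, 6.88 and 6.27 in clean air, again separate. AT5G26731 (1.31 in the mutant and 3.00 in wild type) and AT5G39520 (1.18 and 2.72) were further apart between genotypes, and AT3G60520, AT5G45630, AT4G30500 and AT3G19550 lay between 1.0 and 1.41 in both. With 1 array left out the mutant value of AT5G39520 ranged from 0.47 without clean-air replicate 1 to 1.96 without clean-air replicate 2, and it was 0.78 without ozone replicate 4. The wild-type value of AT5G45630 was 0.60 without clean-air replicate 1 and 0.69 with 16 added.

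The 60 members without a listed gene had a median 2 d difference of 1.5 in the mutant (1.0 to 3.56) and 1.64 in wild type (1.01 to 4.40). At 3 h their medians were -0.22 and -0.53. Their highest group means reached 14.14, above the 12.66 of the named members.

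The 2 d difference was made up of a higher ozone level, a lower clean-air level, or both. Summarized per array as the median level over the 113 members, the mean at 2 d was 8.75 ± 0.21 in ozone-treated mutants (SD, n = 4) against 7.20 ± 0.38 in clean-air mutants (n = 3). Wild type averaged 8.82 ± 0.36 in ozone (n = 4), against 7.16 ± 0.34 in clean air (n = 4). The 3 h values were 8.16 ± 0.19 in ozone against 8.34 ± 0.37 in clean air in the mutant, and 8.35 ± 0.35 against 8.87 ± 0.38 in wild type (n = 3 each). Wild-type leaves in ozone at 2 d thus stood where wild-type leaves in clean air stood at 3 h, and the lowest levels were those of clean air at 2 d. The median of all probe sets stayed between 7.35 and 7.47 in every group.

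**Figure D3:**
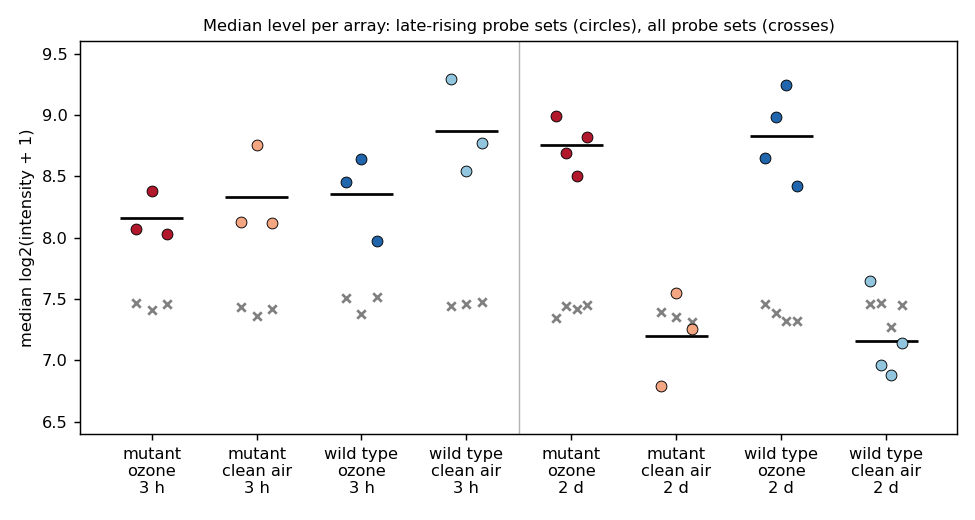
Median log2(intensity + 1) over the 113 members on each array (circles), with group means (lines), beside the median over all probe sets (crosses). At 2 d the ozone groups average 8.75 and 8.82, the clean-air groups 7.20 and 7.16, and at 3 h no group average is below 8.16.

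Set against 3 h, the members' ozone levels at 2 d were higher by a median of 1.01 in the mutant and 0.93 in wild type, while their clean-air levels were lower, with medians of -0.78 and -1.10. Over all probe sets the medians were -0.08 and -0.20 in ozone and -0.06 and -0.10 in clean air. With a step of at least 0.5 in both genotypes, 27 members showed both shifts (0.339% of all probe sets do), 39 only the higher ozone level (8.36%), 40 only the lower clean-air level (11.8%) and 7 neither (79.5%). A shift met in a single genotype did not count, so members counted under only or neither can still show it there. The rule picks high ozone and low clean-air means at 2 d, so these counts describe the members and have no test. Without the third wild-type ozone array at 3 h they were 19, 33, 48 and 13, and the wild-type ozone shift was 0.51. Leaving out the second clean-air mutant array at 3 h gave 22, 44, 31 and 16.

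Among named members, 14 showed both shifts, including AT1G55210 (1.26 higher in ozone and -0.89 in clean air in the mutant, 1.08 and -1.28 in wild type) and AT1G76960 (1.0 and -1.0 in the mutant, 0.99 and -2.12 in wild type). The 23 with only a higher ozone level included CML41 (2.07 in the mutant and 2.63 in wild type, with clean-air shifts of -0.24 and 0.28), AT4G01610 (1.43 and 1.37) and AT1G53100 (2.04 and 1.51). For AT1G09190 the clean-air level was also higher at 2 d, by 2.28 in the mutant and 1.59 in wild type, and the ozone level by 5.32 and 4.41. The 13 with only a lower clean-air level included AT5G07340 (-1.13 in the mutant and -1.40 in wild type), AT5G11930 (-0.97 and -2.44) and AT1G67360 (-1.71 and -2.15). For LPR1, AT1G14260 and AT5G55450 no shift was met in both genotypes at once. In the mutant their ozone levels were higher at 2 d by 1.57, 0.51 and 0.56. In wild type their clean-air shifts were -1.04, -0.78 and -1.07.

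**Figure D4:**
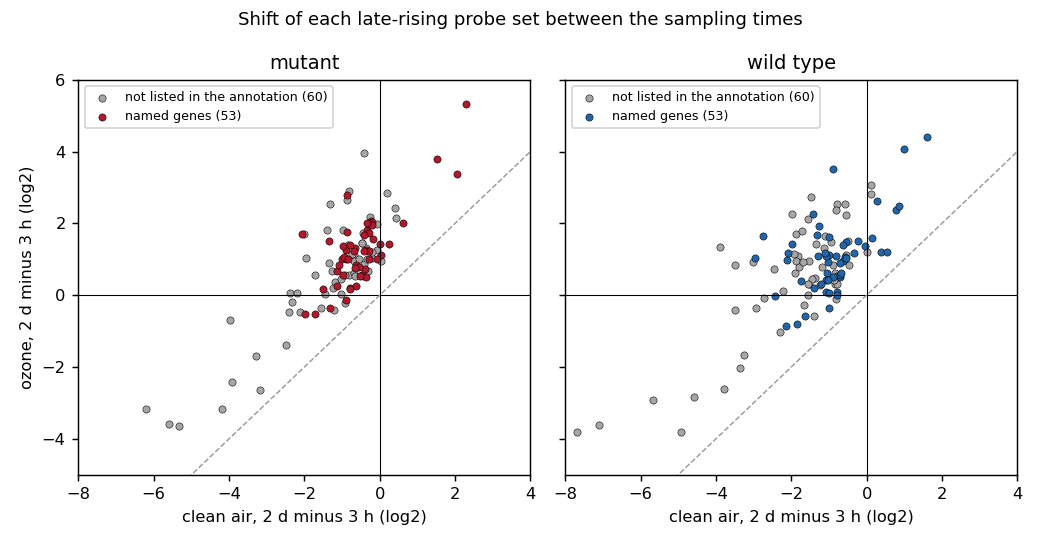
Level at 2 d minus level at 3 h, in log2 units, in clean air (x axis) and in ozone (y axis) for each of the 113 members, in the mutant (left) and wild type (right). Coloured points are the 53 named genes and grey points the 60 members not listed in the annotation, and points lie above the dashed line of equal shifts. Medians are 1.01 and 0.93 in ozone and -0.78 and -1.10 in clean air, and 7 unlisted members lie at or below -3 in clean air in both panels.

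Clean-air levels were lower at 2 d than at 3 h by 3 or more in both genotypes for 7 of the 60 unlisted members and for 0 of the 53 named ones. The median levels of these 7 at 2 d were 6.83 in ozone and 5.72 in clean air in the mutant, and 7.29 and 5.33 in wild type. At 3 h they were 10.07 in ozone and 10.48 in clean air in the mutant, and 10.15 and 10.25 in wild type. In ozone these medians were also lower at 2 d than at 3 h, by less than in clean air. How many of all probe sets passed this clean-air cut was not counted, and the rule favours low clean-air means at 2 d. Nothing is thus read from the 7 unlisted against 0 named members. The group with the highest mean was wild type in ozone at 2 d for 44 members, mutant in ozone at 2 d for 37, and a 3 h group for the remaining 32, of which 23 were highest in clean air. Over all probe sets, wild type in ozone at 2 d was highest for 8.23% and mutant in ozone at 2 d for 8.71%. The rule favours high ozone means at 2 d, so nothing is read from these counts.

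Whether the G protein mutant differed from wild type was tested for each member in each condition, with limma across all probe sets and Benjamini-Hochberg adjustment. Members had to be higher in ozone than in clean air at 2 d in both genotypes, so genes with this difference in wild type alone were left out beforehand. The tests say nothing about such genes. None of the 113 members passed the adjusted threshold of 0.05 in ozone at 2 d, where 0.00879% of all probe sets did. None passed in clean air at 2 d (0.0132% of all), in ozone at 3 h (0.0176%) or in clean air at 3 h (0.0132%). At an unadjusted p under 0.05 the members counted 1, 3, 5 and 4 in these 4 contrasts, which is 0.885%, 2.65%, 4.42% and 3.54% of them, against 3.46%, 2.69%, 5.59% and 3.8% of all probe sets. The lowest adjusted p of a member was 0.9998, 0.9999, 0.7896 and 1.0. With 1 weight fitted to each array, 7 members passed in ozone at 3 h, all 4 named ones lower in the mutant. They were AT1G55210 (-1.26 ± 0.31 SE, adjusted p 0.0284), AT1G14260 (-1.06 ± 0.26, 0.0263), AT1G72700 (-0.97 ± 0.28, 0.0482) and LPR1 (-1.58 ± 0.46, 0.0494). For each of these 4 genes, replicate 3 of wild type in ozone at 3 h, the array furthest from its group, was the lowest of that group. How many of all probe sets passed under the weighted fit was not counted, so nothing is read from the 7.

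The intervals show what these data leave room for. In ozone at 2 d the difference between mutant and wild type had a median SE of 0.454 over the members. For AT5G61310 it was 0.04 (95% interval -0.45 to 0.53), for AT5G39850 0.14 (-0.42 to 0.69) and for AT5G07340 -0.13 (-0.85 to 0.59), so differences above 1 lie outside these intervals. AT1G55210 was at -0.46 (-1.25 to 0.33), CML41 at 0.47 (-0.93 to 1.88) and cwINV6 at -0.16 (-1.42 to 1.09). For OSM34 the interval ran from -4.19 to 0.51 around -1.84, and for AT3G58590 from -0.15 to 2.62 around 1.24.

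**Figure D5:**
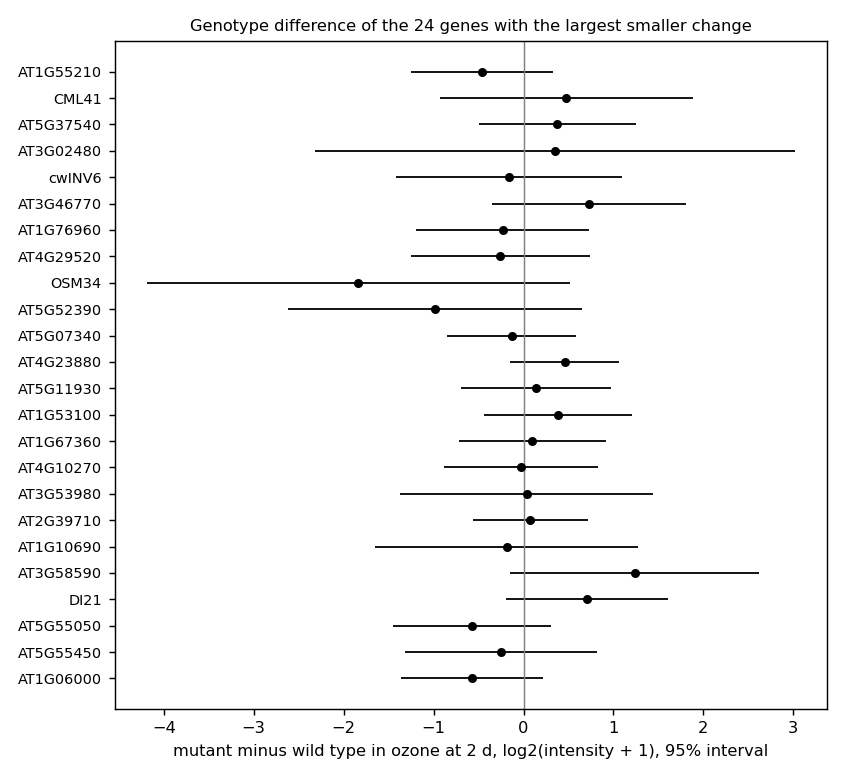
Mutant minus wild type in ozone at 2 d, in log2(intensity + 1), for the 24 named members with the largest smaller ozone difference at 2 d. Points are fitted differences and bars 95% intervals from limma over 4 mutant and 4 wild-type arrays, and every bar includes 0, the widest being that of AT3G02480 (-2.31 to 3.02).

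By direction, the mutant was lower than wild type in clean air at 3 h for 84 of the 113 members, with a median of -0.31, against a median of -0.05 and 12962 of 22746 lower over all probe sets. Leaving out 1 array at a time moved this median between -0.54 and -0.18. In ozone at 3 h the mutant was lower for 69 members with a median of -0.18, against 12790 of 22746 and a median of -0.05 over all probe sets. The members' median moved between -0.41 without the third wild-type ozone array and 0.05 without the second. At 2 d the medians were 0.03 in ozone and 0.08 in clean air, against 0.05 and -0.04 over all probe sets. The named members that passed the unadjusted threshold were AT5G26731 (1.36) and AT5G52390 (-2.47) in clean air at 2 d, LPR1 (-1.20) in ozone at 3 h and AT5G11930 (-1.21) in clean air at 3 h.

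Lists of genes from pathways linked to ozone gave 25 genes with a named probe set of 185 listed, and 24 of them lay outside the set. The annotation did not list 8730 of the 22746 probe sets, so a list gene without a named probe set may still be on the array. In wild type at 2 d, 3 of the 24 rose and 1 fell, against 1.63% of all probe sets higher and 1.82% lower, by limma with adjusted p under 0.05. The 3 that rose were CRT1b, a calreticulin that holds glycoproteins in the endoplasmic reticulum (1.68 ± 0.41 SE, adjusted p 0.0304), ERDJ3B, a partner of the chaperone BiP (1.42 ± 0.39, 0.0484), and DHS3, the entry enzyme of the shikimate pathway (1.09 ± 0.28, 0.0344). NOL, a chlorophyll b reductase, fell by 0.73 ± 0.19 (adjusted p 0.0391). CRT1b meets the value thresholds of the set and was left out by name, so its difference is a description like those of the members. ERDJ3B is also a name that the rule leaves out, although its 3 h differences, 0.55 in the mutant and 0.73 in wild type, were not under 0.5. The 3 that rose are thus not all independent of the rule. The mean of CRT1b at 2 d was 12.23 ± 0.11 in ozone-treated mutants (SD, n = 4), against 10.89 ± 0.25 in clean-air mutants (n = 3). Wild-type leaves averaged 12.50 ± 0.29 in ozone (n = 4), against 10.82 ± 0.07 in clean air (n = 4).

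None of the 24 passed limma's adjusted threshold in the mutant at 2 d, where 0.154% of all probe sets were higher and 0.0352% lower. At an unadjusted p under 0.05, 3 were higher and 3 lower there, against 10 higher and 1 lower in wild type. Shares of all probe sets at this unadjusted threshold were not counted at either time. No difference between the genotypes is thus read from the unadjusted counts. In the mutant CRT1b differed by 1.34, ERDJ3B by 1.12, DHS3 by 0.88 and NOL by -0.49. At 3 h none passed in the mutant (0.615% of all probe sets higher and 0.0352% lower) or in wild type (1.2% and 0.299%), and the unadjusted threshold was passed by 3 higher and 1 lower in the mutant and by 4 higher and 0 lower in wild type. The wild-type calls at 2 d depended on single arrays. Leaving out clean-air replicate 1, 2 or 3, or ozone replicate 2, 3 or 4, left 0 calls, and leaving out clean-air replicate 4 left DHS3 and NOL. ERDJ3B also did not pass under quantile normalization or without any single array of the wild-type clean-air group at 3 h, the mutant clean-air group at 2 d or the mutant ozone groups, and NOL did not pass with separate fits per time. By list, the 5 endoplasmic reticulum genes outside the set had a wild-type median of 0.91 at 2 d, and 2 rose. The salicylic acid genes, 3 of 29 listed, had a median of 1.53 and 0 passed. With the replicate block and with array weights SAG101 and SARD4 passed. Of 24 listed defence protein genes, only PDF1.2, PDF1.2b and THI2.1 were covered outside the set, with a median of -0.88, and 0 passed. Over all probe sets the median was -0.09. The ethylene and G protein lists had 0 genes with a named probe set.

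By position, the named members lay on chromosomes 1 to 5 with 14, 1, 11, 10 and 16 genes. Chromosome 2 held 1.89% of them and 16.3% of all named probe sets, and chromosome 5 held 30.2% and 22.3%. The only adjacent pair of members was cwINV6 and AT5G11930, neighbours on chromosome 5 by their order in the TAIR10.1 gene table. Across the other neighbours of members, 44 had a named probe set. Their median 2 d difference was 0.07 in the mutant and -0.02 in wild type, and 0 of them reached 1 in both genotypes.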

How the data were processed

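The deposited intensity values are linear, with 1 value for each probe set on each array, and were used as given. Per the submitters' processing notes the tools were Affymetrix Expression Console and RMA, with no version, although RMA usually writes log2 values. No background or scaling step is given in the sources used here, but trimmed means of 495.85 to 496.76 on all 27 arrays show values on a common overall level. Levels are log2(intensity + 1) without filter or further normalization. Differences of dim genes depend on the added constant, and that of OSM34 in the mutant at 2 d was 1.77 with 1 added and 0.92 with 16. One model with 8 group means was fitted over 27 arrays with limma 3.58.1 in R 4.3.3 (19 residual and 2.53 prior degrees of freedom), with 2-sided p-values adjusted by Benjamini-Hochberg over 22746 probe sets. The number of arrays limits the precision, and p-values measure the spread between arrays labelled as biological replicates. The platform annotation gave gene names, and TAIR10.1 served for current names and for neighbours only. Members and lists were chosen with earlier results of these data known. Genes were named by rule: the 24 with the largest smaller difference at 2 d, members on a list, members past a genotype test, and those at the thresholds. The other named members were added after their values were seen. Equal replicate numbers paired the mutant and wild-type ozone arrays at 2 d, with correlations of deviations of 0.102 to 0.170 in 4 pairs. A fit with a block for each replicate number within a time, over all arrays, also gave 0 members. Alternatives were another added constant (16), median centring, quantile normalization, a filter on dim probe sets, separate fits per time, array weights, the replicate block and each array left out. The fit was tested on simulated data.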

Additional observations from a re-analysis of the deposited data

Results flagged for a closer look

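Single arrays stood apart from the other 3 of their group in 8 of 162 sets of 4 arrays checked, and chance alone flags about 1 in 20. In ozone-treated mutants at 2 d, AT3G02480 reached 8.643 on array 4 against 6.111 to 6.363 on the others, and AT5G41400 had 6.438 on array 3 against 9.877 to 10.19. In ozone-treated wild type at 2 d, AT5G52390 had 10.45 on array 2 against 9.46 to 9.569. In clean-air wild type at 2 d, array 1 gave 6.223 for AT4G10270 against 4.728 to 4.766, and 3.365 for AT5G45630 against 5.04 to 5.174. Array 3 of that group gave 9.091 for AT2G39710 against 8.336 to 8.379. Array 4 gave 6.269 for AT4G23880 against 6.792 to 6.884, and 7.84 for AT3G19550 against 6.377 to 6.594.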

How the results depend on the processing

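The set had 90 members with 16 added to each intensity (88 shared), 108 after median centring (103 shared), 116 after quantile normalization (107 shared) and 80 to 140 with 1 array left out, and 25 members (9 named) met the thresholds under every array left out. Of the 106 differences of named members at 2 d, 19 moved by over 1.5 times with at least 1 array left out and 5 with 16 added. Over 3180 recomputed values, 4 moved by more than the SD between replicates (AT3G46770 and AT5G26731 with 16 added) and 2 reversed, AT1G20030 at -0.019 and AT1G74010 at -0.287 in the mutant without clean-air replicate 1 (up to 2.224 and 1.817 without replicate 2). Members passing between genotypes stayed at 0 with 1 array left out, and were 7 with array weights in ozone at 3 h. The share of all probe sets under those weights was not counted. Listed genes passing between ozone and clean air in wild type at 2 d were 7 with the replicate block (adding SAG101, SARD4 and NDB2), 7 with array weights (adding SAG101, SARD4 and IGPS) and 0 to 5 with 1 array left out. In wild type at 3 h they were 1, 6 and 0 to 3. In the mutant at 3 h they were 2 with array weights and 0 to 1 with 1 array left out, and at 2 d they were 1 with separate fits per time. The causes were not tested. The gap between the members' array medians at 2 d ranged from 1.35 to 1.73 in the mutant and 1.53 to 1.83 in wild type. Over the 26 pairs of equal replicate number, correlations of deviations ran from -0.087 to 0.276. Arrays matched best with their own number in 3 of 3 cases between mutant ozone and clean air at 3 h. Between wild-type ozone and clean air at 2 d they did so in 3 of 4. Between mutant ozone and clean air at 2 d, and between the genotypes in clean air at 3 h, they did so in 0 of 3. Pairing by number was thus uneven, and the block counts are given as numbers only.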

Other observations

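Some members spread widely over arrays of a group, often on the same arrays. An SD of 1 or more in at least 1 group occurred for 31 of the 53 named members, and in 4 or more groups for 9, among them AT1G74010 (all 8 groups), OSM34 and AT3G02480 (6 each) and AT1G20030 and AT5G39520 (4 each). In ozone-treated wild type at 2 d, 10 named members had such an SD. Replicate 3 was the highest array for 5 of them, namely AT3G02480, OSM34, AT1G20030, AT5G39520 and AT1G74010, and replicate 4 the lowest for 6 of the 10. AT1G20030 had 8.71, 8.67, 9.92 and 6.59 on these arrays, against 3.20, 5.45, 10.10 and 7.15 in clean air. In ozone-treated wild type at 3 h, 20 named members had such an SD, and replicate 3 was the lowest array for 17 of them. These genes were chosen after their values were seen, and no test was made.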
